A study of Homo sapiens with 4 samples.

Results

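The lysosome and autophagy genes described here are 37 genes of the lysosomal lumen, the lysosomal membrane, the proton pump, the factors that transcribe lysosomal genes and the autophagy machinery. They were chosen by name, with earlier results of these data known. Each was found once in the deposited table of 20348 genes by its Ensembl identifier. K562 is a human line from chronic myeloid leukemia and THP-1 a human line from acute monocytic leukemia. Both lines were cultured for 72 h with DMSO, the solvent control, or with 100 nM periplocin, a plant cardiac glycoside, before poly-A RNA was sequenced. The 4 groups are therefore K562 DMSO, K562 periplocin, THP-1 DMSO and THP-1 periplocin, with 1 library each. The titles of the control samples call them blank, while their library names and the methods name DMSO.

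Lysosomes are acidic organelles in which proteins, lipids, glycans and nucleic acids are broken down by hydrolases that work at low pH. The acid is made by the V-ATPase, a proton pump with a membrane sector (V0) and a cytosolic sector (V1). Autophagy encloses cytoplasm in a double membrane that then fuses with the lysosome. Many lysosomal and some autophagy genes are activated by TFEB, TFE3 and MITF, relatives of the MiT/TFE family that are kept in the cytoplasm by mTORC1 when nutrients are plentiful. Macrophages and monocytes are rich in lysosomes, and GPNMB, CD68, CTSS and LIPA are widely used as genes of such cells.

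The MiT/TFE factors bind a palindrome known as the CLEAR element, whose core is the E-box CACGTG, whose longer form is TCACGTGA and whose full form has a further G before and C after it. RefSeq promoter windows on GRCh38.p14, from 250 bases before to 50 bases after each transcript start, were found for 29 of the 37 genes, and not for CTSB, CTSS, HEXA, PSAP, LAMP2, ATP6V1A, ATP6V1B2 or ATP6V1H. Of the 29, 8 genes (27.6%) held CACGTG, 5 (17.2%) held TCACGTGA and 2 (6.9%) held the full form. Among all 27305 genes with such windows, the shares were 8.77%, 1.18% and 0.421%. A gene was counted if any of its windows held the motif, and the 29 genes had 46 windows. The 27305 genes include some outside the count table and were not matched to the 29 in windows per gene, gene type or expression. Each longer motif contains the shorter ones, and as palindromes they read alike on both strands. A match describes the letters only. The 30 bases around a motif are printed 5′ to 3′ on the gene's strand for the 8 genes, with the motif in capitals. They are given so that the promoters can be set beside the responses given further on. Not every site is printed, since CTSA, LAMP1 and MCOLN1 hold further CACGTG sites. For LAMP1 and MCOLN1 the bases just after the start were not found in a reference transcript of the gene.
GAA (chr17:80101493-80101522, plus strand): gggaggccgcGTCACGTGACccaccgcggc
GAA (chr17:80101538-80101567, plus strand): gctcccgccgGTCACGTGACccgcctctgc
MCOLN1 (chr19:7522598-7522627, plus strand): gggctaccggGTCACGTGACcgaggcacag
CTSA (chr20:45891298-45891327, plus strand): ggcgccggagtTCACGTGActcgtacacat
LAMP1 (chr13:113297199-113297228, plus strand): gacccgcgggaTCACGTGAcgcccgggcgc
ATP6V0D1 (chr16:67481199-67481228, minus strand): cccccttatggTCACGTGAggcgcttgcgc
CTSD (chr11:1763957-1763986, minus strand): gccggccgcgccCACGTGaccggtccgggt
NEU1 (chr6:31862930-31862959, minus strand): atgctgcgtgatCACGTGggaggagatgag
CD63 (chr12:55729172-55729201, minus strand): ccgggtaggggcCACGTGgccctggccggg

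Library totals were between 16381149 and 20622694 counts. Levels are given as CPM, counts scaled to a library total of 1000000, and pairs of values give DMSO first and periplocin second. In each line the log2 fold change of periplocin over DMSO was computed after TMM scaling of the pair of libraries. With a lone library for every condition, no difference has a replicate check, and no p-value is given for a single line. The 95% interval in brackets after a log2 fold change is an exact binomial (Clopper-Pearson) interval for counting error alone, so it sets library against library rather than condition against condition. Genes with at least 10 counts in either library were compared, and "rose" and "fell" are used only for changes of at least 2-fold. The cell line labels were checked against marker genes. All 8 markers of K562, among them GATA1 and the fetal globins, were between 305 and 12616 counts in K562 DMSO and at most 143 in THP-1 DMSO, and all 10 myeloid markers of THP-1 were more abundant in THP-1 DMSO than in K562 DMSO. In bulk RNA, a change in the share of one kind of cell and a change of RNA per cell cannot be told apart.

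In both lines more lysosome and autophagy genes rose than fell. In K562, 36 of the 37 passed the count minimum, and 10 of them (27.8%) rose, against 10.5% of the 12736 genes compared. Among the 10, GPNMB (4 and 17 counts) passed the minimum only through the periplocin library. WIPI1 alone fell, or 2.78% against 13% of all genes. In THP-1 all 37 were compared, 14 (37.8%) rose against 9.6% of 13367 genes, and none fell, against 12.3%. Past 1.5-fold, 18 of 36 genes were higher in K562 (50% against 20.5% of all genes) and 1 lower (2.78% against 23.2%), and 26 of 37 were higher in THP-1 (70.3% against 18.7%) and 1 lower (2.7% against 22.8%). The median log2 fold change of the 37 genes was 0.59 in K562 and 0.83 in THP-1, where that of all genes compared was -0.01 and -0.03. Counting error is small at these depths. The counting interval lay above 0 for 25 of the 36 genes in K562 (37.4% of all genes) and for 33 of 37 in THP-1 (36.4% of all genes), and below 0 for 9 (38.1% of all genes) and for 2 (38.2% of all genes). Together the 37 genes took 0.444% and 0.705% of all counts in K562 and 0.377% and 0.732% in THP-1.

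**Figure D1:**
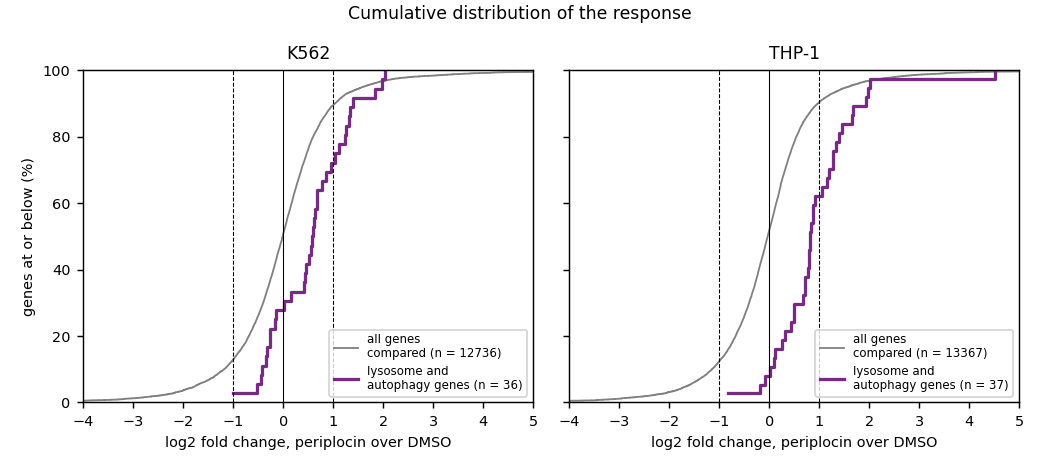
Cumulative share of genes (y axis, %) at or below each log2 fold change of periplocin over DMSO (x axis), for the lysosome and autophagy genes and for all genes compared, with dashed lines at 2-fold. The curves of the 36 genes in K562 and of the 37 in THP-1 run to the right of those of all genes up to a log2 fold change of nearly 2, with medians of 0.59 and 0.83.

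The genes that rose in both lines were CTSB, CTSD, CTSS, GLA, NEU1, NPC2 and GPNMB. These are 7 of the 36 genes compared in both lines (19.4%), against 2.33% of 11672 genes. GPNMB counts among them in K562 only through its periplocin library, at 17 counts against 4 in DMSO. None of the 36 fell in both lines, against 3.28% of all genes. A further 18 genes had a log2 fold change above 0 in both lines without passing 2-fold in both, which makes 25 of 36, or 69.4% against 29.5% of all genes. GAA and ATG5 were below 0 in both lines, 5.56% against 31.9%.

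The cathepsins, the proteases of the lysosome, had the highest median log2 fold change of the groups, 1.34 in K562 and 1.15 in THP-1. Of the 7, 4 rose in each line (57.1%, against 10.5% of all genes in K562 and 9.6% in THP-1). CTSB, a cysteine protease, was at 309 and 1111 CPM in K562 and at 140 and 530 CPM in THP-1. It rose by a log2 fold change of 1.84 [1.79 to 1.88] in K562 and 1.93 [1.87 to 1.99] in THP-1, so the responses of the lines differed by 0.09. The starting level of CTSB was the higher one in K562.

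CTSD, an aspartic protease, was at 157 and 416 CPM in K562 and at 157 and 394 CPM in THP-1. Its log2 fold change was 1.39 [1.33 to 1.46] in K562 and 1.34 [1.28 to 1.40] in THP-1. A read-through gene listed only by the identifier ENSG00000250644 shares 41.7% of the exon bases of CTSD on the same strand, so reads could have been counted for either. It was itself at 44 and 126 counts in K562 and 204 and 612 in THP-1. Adding its counts left CTSD past 2-fold in both lines.

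CTSS, a protease of antigen-presenting cells, was at 5.19 and 20.7 CPM in K562 and at 214 and 666 CPM in THP-1. It rose by 1.98 [1.64 to 2.34] in K562 and 1.65 [1.60 to 1.70] in THP-1. Even after periplocin the K562 level stayed below that of either THP-1 library.

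CTSZ, a carboxypeptidase, was at 103 and 262 CPM in K562, where it rose (1.34 [1.26 to 1.42]), and at 146 and 264 CPM in THP-1, a log2 fold change of 0.87 [0.80 to 0.93]. CTSA, the protective protein that stabilises NEU1 and the lysosomal beta-galactosidase, was at 78.8 and 123 CPM in K562 (0.63 [0.53 to 0.74]) and at 116 and 255 CPM in THP-1, where it rose (1.15 [1.08 to 1.22]). CTSA carries TCACGTGA 26 bases before its start. The remaining pair did not pass 2-fold in either line. CTSL was higher in periplocin, with log2 fold changes of 0.45 in K562 and 0.80 in THP-1. CTSH was lower in K562 (-0.35 [-0.46 to -0.24]) and did not differ beyond counting error in THP-1 (0.01 [-0.15 to 0.17]).

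**Figure D2:**
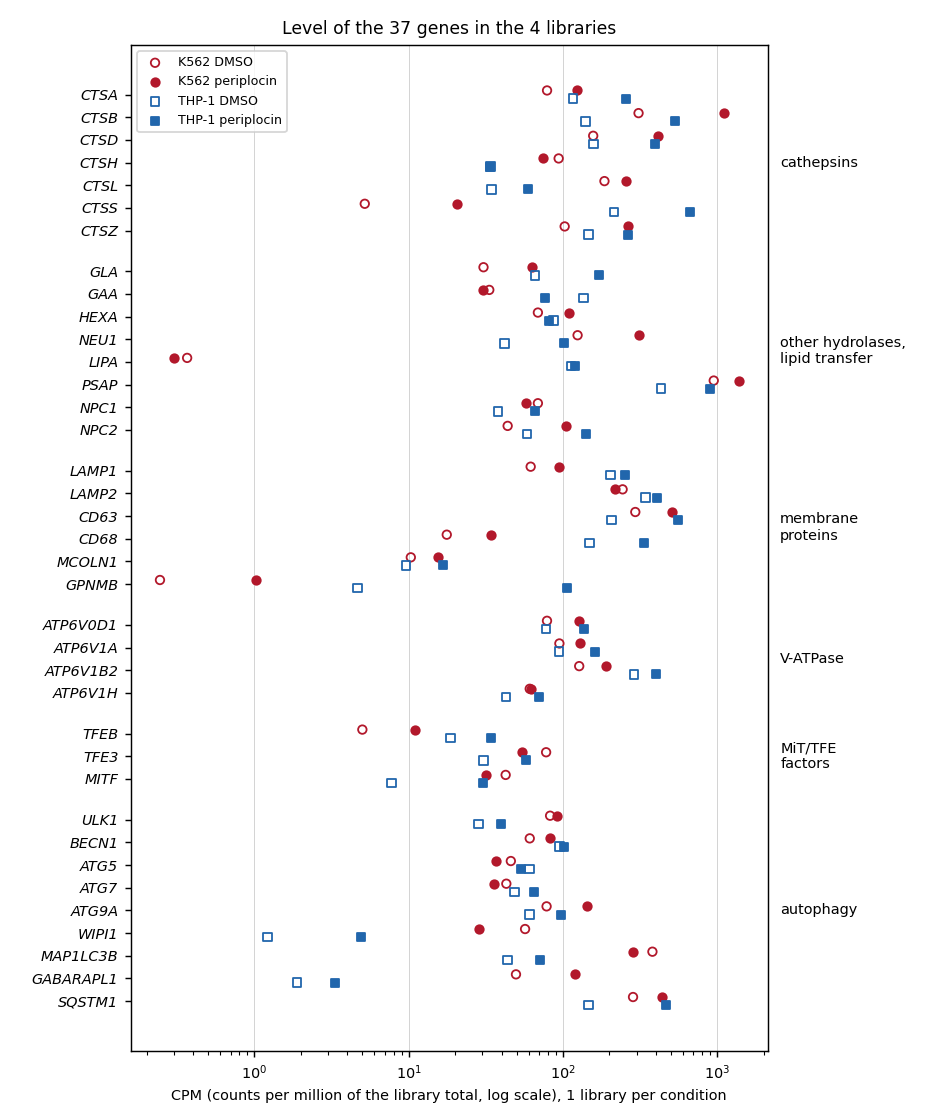
CPM (x axis, log scale) of each of the 37 genes in the 4 libraries, grouped by role, with red circles for K562, blue squares for THP-1, open symbols for DMSO and filled symbols for periplocin. CTSB lies at 309 and 1111 CPM in K562 and at 140 and 530 CPM in THP-1, while GPNMB moves from 4.66 to 106 CPM in THP-1 and stays near 1 CPM or less in K562.

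Among the hydrolases of glycans and lipids and the lipid transfer proteins, GLA, NEU1 and NPC2 rose in both lines. GLA, the alpha-galactosidase that is deficient in Fabry disease, was at 30.5 and 63.3 CPM in K562 (1.04 [0.89 to 1.2]) and at 65.9 and 172 CPM in THP-1 (1.40 [1.3 to 1.49]). Its K562 interval includes changes under 2-fold. NEU1, the lysosomal sialidase, was at 124 and 312 CPM in K562 (1.32 [1.24 to 1.39]) and at 41.8 and 101 CPM in THP-1 (1.29 [1.17 to 1.40]). The levels of NEU1 were lower in both THP-1 libraries than in K562 DMSO, and the responses differed by 0.03.

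NPC2, which binds cholesterol in the lumen, was at 43.8 and 104 CPM in K562 (1.24 [1.11 to 1.36]) and at 58.4 and 141 CPM in THP-1 (1.28 [1.18 to 1.38]). NPC1, the membrane protein that takes cholesterol over from NPC2, did not follow it. In K562 NPC1 was at 68.7 and 57.5 CPM, a log2 fold change of -0.27 [-0.39 to -0.14], and in THP-1 at 38.0 and 66.3 CPM, a log2 fold change of 0.81 [0.68 to 0.95].

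PSAP, the precursor of the saposins that present sphingolipids to their hydrolases, was the most abundant of the 37 in counts, at 948 and 1374 CPM in K562 (0.52 [0.49 to 0.55]) and 432 and 894 CPM in THP-1, where it rose (1.06 [1.02 to 1.10]). HEXA, the alpha subunit of beta-hexosaminidase, was higher in K562 (0.67 [0.56 to 0.78]) and did not differ beyond counting error in THP-1 (-0.08 [-0.18 to 0.02]). GAA, the acid alpha-glucosidase that degrades glycogen, was the one gene of this group that was lower in THP-1 beyond counting error, at 135 CPM in DMSO and 76.1 in periplocin (-0.82 [-0.91 to -0.72]). In K562 it was at 33.3 and 30.3 CPM (-0.14 [-0.32 to 0.03]). GAA has the full CLEAR palindrome at both of the printed positions, 78 and 33 bases before its start. LIPA, the acid lipase, had 6 and 5 counts in K562 and was not compared there, while in THP-1 it was at 112 and 120 CPM (0.10 [0.02 to 0.19]).

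Of the membrane proteins, GPNMB, a glycoprotein that is a known target of MITF, had the largest change of the 37 genes in THP-1. In THP-1 it was at 96 and 1885 counts, or 4.66 and 106 CPM, a 23.0-fold rise with a log2 fold change of 4.52 [4.23 to 4.84]. In K562 it had 4 and 17 counts, and it met the count minimum only through the periplocin library. Its log2 fold change there, 2.03 [0.44 to 4.09], is uncertain by counting error alone.

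CD63, a tetraspanin of late endosomes and lysosomes, was at 294 and 507 CPM in K562 (0.78 [0.72 to 0.83]) and 206 and 558 CPM in THP-1, where it rose (1.45 [1.40 to 1.5]). CD68, a heavily glycosylated protein of macrophage lysosomes, was at 17.6 and 34.4 CPM in K562 (0.95 [0.74 to 1.16]) and 149 and 336 CPM in THP-1, where it rose (1.19 [1.12 to 1.25]). The main structural membrane proteins changed less. LAMP1 had log2 fold changes of 0.61 in K562 and 0.32 in THP-1, and LAMP2 of -0.17 and 0.26. MCOLN1, a calcium channel of the lysosome, was the least abundant of this group outside GPNMB, at 10.3 and 15.4 CPM in K562 (0.57 [0.28 to 0.86]) and 9.60 and 16.6 CPM in THP-1 (0.80 [0.54 to 1.07]).

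The 4 V-ATPase subunits were all higher in periplocin in THP-1, and none passed 2-fold in either line. ATP6V0D1, of the V0 sector, had log2 fold changes of 0.67 in K562 and 0.83 in THP-1. In the V1 sector, ATP6V1A, the catalytic subunit, had 0.43 and 0.78, and ATP6V1B2 had 0.56 and 0.49. ATP6V1H, a regulatory subunit, did not differ beyond counting error in K562 (0.02 [-0.10 to 0.15]) and was higher in THP-1 (0.72 [0.59 to 0.84]). The group median was 0.50 in K562 and 0.75 in THP-1.

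The MiT/TFE factors moved differently in the lines. TFEB was at 5.01 and 11.0 CPM in K562 and at 18.6 and 34.0 CPM in THP-1. It rose in K562 (1.12 [0.74 to 1.52], an interval that includes changes under 2-fold) and was higher in THP-1 (0.88 [0.69 to 1.07]). TFE3 was lower in K562, at 77.7 and 54.5 CPM (-0.52 [-0.65 to -0.40]), and higher in THP-1, at 30.5 and 57.4 CPM (0.92 [0.78 to 1.07]).

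MITF showed the same split more widely. It was at 42.5 and 31.5 CPM in K562 (-0.44 [-0.61 to -0.28]) and at 7.76 and 30.4 CPM in THP-1, where it rose (1.98 [1.73 to 2.25]). After periplocin the libraries of the lines were near each other in TFE3, at 54.5 and 57.4 CPM, and in MITF, at 31.5 and 30.4 CPM. The remaining family member TFEC, which is not among the 37 and was named after its values were seen, had no count in either K562 library, which allows up to 3 counts in each, and was at 120 and 162 CPM in THP-1.

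**Figure D3:**
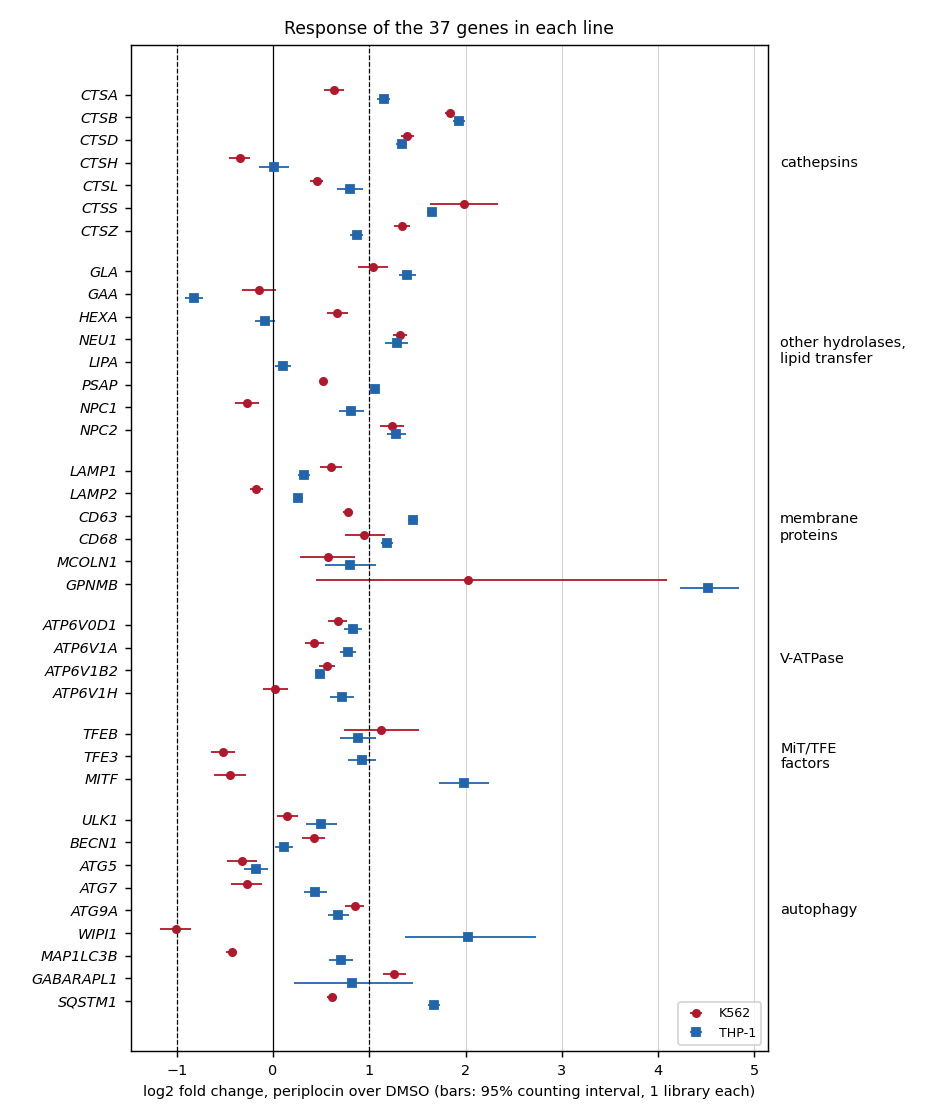
Log2 fold change of periplocin over DMSO (x axis) for each of the 37 genes in K562 (red circles, without LIPA) and THP-1 (blue squares), with bars for the 95% counting interval and dashed lines at 2-fold. CTSB, CTSD, NEU1 and NPC2 lie close together in the lines, while TFE3, MITF, WIPI1 and MAP1LC3B lie below 0 in K562 and above 0 in THP-1.

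Of the 9 autophagy genes, 1 rose (11.1% against 10.5% of all genes) and 1 fell (11.1% against 13%) in K562, shares near those of all genes. In THP-1, 2 rose (22.2% against 9.6%) and 0 fell (against 12.3%). ULK1, the initiating kinase, had log2 fold changes of 0.15 in K562 and 0.50 in THP-1, BECN1, of the class III PI3-kinase complex, 0.42 and 0.11, and ATG5, which is conjugated to ATG12, -0.32 and -0.18. ATG7, the E1-like enzyme of both conjugation systems, was lower in K562 (-0.27) and higher in THP-1 (0.44). ATG9A, a membrane protein of vesicles that seed autophagosomes, was higher in both, with 0.85 and 0.68, though a read-through gene (ENSG00000284820) shares 38.8% of its exon bases.

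WIPI1, a phosphoinositide-binding protein of forming autophagosomes, had opposite changes past 2-fold in the lines. It was at 930 and 470 counts in K562, or 56.8 and 28.4 CPM, and fell (-1.01 [-1.17 to -0.85]). In THP-1 it was scarce, at 25 and 87 counts, or 1.21 and 4.91 CPM, and rose (2.02 [1.37 to 2.73]). With DESeq2 size factors in place of TMM the K562 change was -0.98, under 2-fold. ARSG on the opposite strand shares 24.3% of the exon bases of WIPI1, and the strand setting of the counting is not stated. ARSG was at 34 and 2 counts in THP-1, and with its counts added to those of WIPI1 the THP-1 change was 0.82, also under 2-fold.

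The ubiquitin-like proteins that coat the autophagosome differed from each other. MAP1LC3B, the LC3 protein most often used to follow autophagy, was at 380 and 284 CPM in K562 (-0.43 [-0.49 to -0.38]) and 43.6 and 70.8 CPM in THP-1 (0.71 [0.58 to 0.83]). Its near-identical copy MAP1LC3B2 had at most 13 counts in any library. GABARAPL1 was at 49.6 and 119 CPM in K562, where it rose (1.26 [1.14 to 1.38]). In THP-1 it had 39 and 59 counts, or 1.89 and 3.33 CPM (0.83 [0.22 to 1.45]). K562 thus had lower MAP1LC3B and higher GABARAPL1 in periplocin.

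SQSTM1, the p62 receptor that links ubiquitinated cargo to LC3, was at 284 and 437 CPM in K562 (0.61 [0.56 to 0.66]) and 146 and 462 CPM in THP-1, where it rose (1.67 [1.61 to 1.74]). MRNIP on the opposite strand shares 20.7% of its exon bases, and with the counts of MRNIP added the THP-1 change was 1.49. Both SQSTM1 values in periplocin lay above both in DMSO.

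The responses of the lines were then set side by side for the 36 genes. The THP-1 response was the larger in 24 of them, but the share of all genes for which this holds was not counted. The median difference (THP-1 log2 fold change minus K562 log2 fold change) was 0.29, against -0.04 over 11672 genes. The difference was at least 1 for NPC1, GPNMB, TFE3, MITF, WIPI1, MAP1LC3B and SQSTM1, or 19.4% against 12.8% of all genes. It was at most -1 for none, against 11.2%. NPC1, LAMP2, TFE3, MITF, ATG7, WIPI1 and MAP1LC3B were lower in K562 and higher in THP-1 with both counting intervals clear of 0, which makes 7 of 36 (19.4%) against 9.9% of all genes. None of the 36 was higher in K562 and lower in THP-1 in this way, against 9.49%. These differences were not tested, since each group has 1 library. Across the 36 genes the responses had a Pearson r of 0.457 and a Spearman rho of 0.449, and across all 11672 genes 0.251 and 0.298. The points of each line share the same libraries, and genes are not independent replicates.

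Before treatment the levels of single genes differed between the lines in both directions, at shares not far from those of all genes. Between the DMSO libraries, 9 of 37 genes were at least 2-fold higher in THP-1 (24.3% against 25% of 13974 genes) and 11 at least 2-fold lower (29.7% against 22.1%). The median log2 difference of THP-1 from K562 was 0.11 for the 37 genes and 0.04 for all genes, and it was -0.0066 for the 37 with library totals in place of TMM, which moves the median of all genes from 0.04 to -0.08. Relative to that shift the genes stayed near the middle of the table.

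The genes higher in THP-1 DMSO were LIPA (log2 difference 8.35 [7.26 to 9.83]), CTSS (5.49), GPNMB (4.33 [2.97 to 6.28]), CD68 (3.20), GAA (2.14), TFEB (2.01), LAMP1 (1.84), ATP6V1B2 (1.3) and GLA (1.23). LIPA and GPNMB were at 6 and 4 counts in K562 DMSO, so their intervals are wide. Those lower in THP-1 DMSO were WIPI1 (-5.42), GABARAPL1 (-4.59), MAP1LC3B (-3.00), MITF (-2.33), CTSL (-2.31), NEU1 (-1.45), ULK1 (-1.42), CTSH (-1.35), TFE3 (-1.23), CTSB (-1.02) and PSAP (-1.01). Per kilobase of the longest coding transcript, CD63 and PSAP had the highest levels of the 37 genes in all 4 libraries, between 150 and 478 CPM per kb. In THP-1 the lowest were GABARAPL1 and WIPI1, and in K562 they were LIPA and GPNMB.

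Other genes of the same pathways were counted in the same way, in lists written from general knowledge with earlier results of these data known. Their shares are read against the 10.5% higher and 13% lower of all genes in K562 and the 9.6% and 12.3% in THP-1. Of the other lysosomal hydrolases and their cofactors, 10 of 42 compared (23.8%) rose and 3 (7.14%) fell in K562, and 10 of 42 (23.8%) rose and 0 fell in THP-1. The list medians were 0.51 and 0.58. In K562 the largest changes above 10 CPM were in LGMN, the asparaginyl endopeptidase (166 to 722 counts, 2.09), CTSF (388 to 1608, 2.02) and GM2A, the ganglioside activator (545 to 1893, 1.77). In THP-1 IFI30, a lysosomal thiol reductase (66 to 856, 3.92), and DNASE2 (281 to 978, 2.03) were among them.

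Other lysosomal membrane genes had 4 of 23 (17.4%) risen and 2 (8.7%) fallen in K562 and 7 of 24 (29.2%) risen and 2 (8.33%) fallen in THP-1. LITAF fell in K562 (1157 to 300 counts, -1.97), and SLC36A1 (1.32) and the chloride-proton exchanger CLCN7 (1.11) rose. In THP-1 ABCA2 fell (4656 to 1478, -1.43), and the sialic acid exporter SLC17A5 (1.33) and OSTM1 (1.25), the partner of CLCN7, rose.

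Of the other V-ATPase subunits, 13 of 16 were above 0 in K562, with a median of 0.51, but 0 rose and 2 (12.5%) fell, ATP6V1E2 (107 to 39 counts, -1.48) and ATP6V1C2 (46 to 22, -1.09), both named after their values were seen. In THP-1, 15 of 18 were above 0, with a median of 0.58, 3 (16.7%) rose and 1 (5.56%) fell. The median of all genes compared was -0.01 in K562 and -0.03 in THP-1, and their share above 0 in each line was not counted. The largest changes in K562 above a mean of 10 CPM, ATP6AP1 (0.98), ATP6V1E1 (0.86) and ATP6V0C (0.82), stayed under 2-fold, while in THP-1 ATP6V0A1 (1421 to 4001 counts, 1.72), ATP6V1C2 (1.68) and ATP6AP2 (1.26) rose.

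The other autophagy genes had 9 of 45 (20%) risen and 1 (2.22%) fallen in K562, with a median of 0.32. In THP-1, 5 of 45 (11.1%) had risen, near the share of all genes, and 1 (2.22%) had fallen, with a median of 0.22. TP53INP2 rose in both lines (228 to 1032 counts, 2.15, and 225 to 922, 2.26), as did TP53INP1 (1.45 and 2.07). SESN2, a stress-induced inhibitor of mTORC1, fell in K562 (6525 to 1556, -2.09). GABARAP, a close relative of GABARAPL1, rose in THP-1 (944 to 1730, 1.10).

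In the list of mTORC1 and its lysosomal regulators, 2 of 19 (10.5%) rose in K562, the share of all genes. They were TSC1 (1061 to 2879 counts, 1.41) and FLCN (700 to 1706, 1.26), while RRAGC was at 0.94. None of the 20 compared in THP-1 passed 2-fold, where FNIP2 (0.99), FNIP1 (0.89) and MLST8 (-0.74) were farthest from 0. Of 19 genes that sort hydrolases to the lysosome or tether membranes there, 1 (5.26%) rose in each line, below the share of all genes. GNPTG, of the enzyme that makes the mannose 6-phosphate tag, rose in K562 (1.06), where VPS11 (0.79) and VPS16 (0.66) came next. SORT1 rose in THP-1 (209 to 953, 2.42), where IGF2R, a receptor for that tag, was at 0.73 and GGA2 at 0.42.

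**Figure D4:**
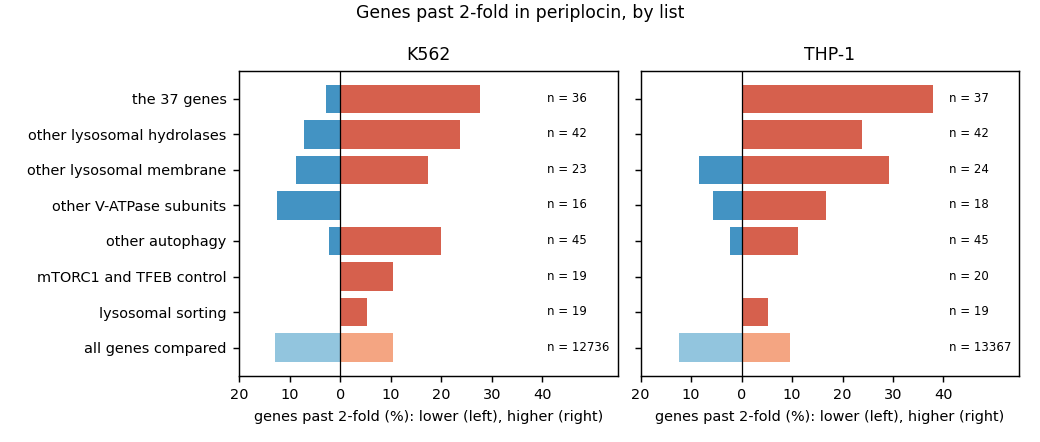
Percentage of genes past 2-fold in periplocin (x axis, higher to the right in red, lower to the left in blue) for the 37 genes, the other pathway lists and all genes compared (paler bars), in K562 and THP-1, with the number compared beside each bar. The 37 genes have 27.8% higher in K562 and 37.8% in THP-1, against 10.5% and 9.6% of all genes.

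Marker genes of macrophages went in both directions in each line. Of 16 markers, 13 were compared in THP-1, where 7 rose (53.8% against 9.6% of all genes) and 1 fell (7.69% against 12.3%). The summed level of the 16 was 644 and 1025 CPM. CD86 (8 to 416 counts, 5.91), CD14 (8 to 382, 5.78) and CD36 (616 to 2162, 2.04) had the largest changes above 10 CPM. CD86 and CD14 met the count minimum in THP-1 only through the periplocin library. MARCO, the marker that fell there (22 to 6 counts), met it only through the DMSO library and was named after its values were seen. MRC1 at 1 and 3 counts, CD163 at 1 and 4, and C1QA at 5 and 4 stayed near 0, and LYZ (3962 and 2752 counts) and CSF1R (3086 and 2286) were lower in periplocin. In K562 the summed level was 160 and 212 CPM, with 8 and 7 of the 16 markers at 3 counts or fewer. Of the 10 compared there, 5 rose (50% against 10.5% of all genes) and 2 fell (20% against 13%), with a median of 0.85. CD14 (1 to 69 counts, 5.92) and CD36 (35 to 218, 2.61), named after their values were seen, rose, as did APOE (720 to 1755, 1.26). CD14 and MRC1 (1 to 14 counts) met the count minimum in K562 only through the periplocin library. FCGR2A fell (1033 to 282, -1.90), as did FCGR1A (11 to 2, -2.41 [-5.70 to -0.29]), and LYZ was higher (0.47). FCGR1A met the count minimum in K562 only through the DMSO library. MRC1 and FCGR1A were also named after their values were seen. The K562 markers rose in 7 of 8 cases in that line (87.5% against 10.5% of all genes), from a sum of 2032 to 8718 CPM. HBZ (3.21), HBG1 (2.22) and HBG2 (2.17) were farthest from 0. Of the 10 myeloid markers of THP-1, 2 rose (20% against 9.6% of all genes) and 2 fell (20% against 12.3%) in that line. CTSG (-1.86), FCGR1A (1.45) and ITGAM (1.12) were farthest from 0 above a mean of 10 CPM. MPO also fell (43 to 14 counts, -1.38) and was likewise chosen with its values known. CSF1R, LYZ, ITGAM and FCGR1A stand in both the macrophage and the THP-1 list. Of the 10 THP-1 markers, 7 were compared in K562, where 1 rose (14.3% against 10.5% of all genes) and 4 fell (57.1% against 13%). CD33 fell (-1.54), while SPI1 was lower (-0.95). Among the 4, FCGR1A and CEBPA (23 to 7 counts) met the count minimum only through the DMSO library. CEBPA was named after its values were seen. The part of these markers in the changes of the lysosome and autophagy genes was not tested.

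One model of all 4 libraries, with terms for line and for treatment, draws its error from how far the responses of K562 and THP-1 differ and has 1 residual degree of freedom. By edgeR's quasi-likelihood test 0 of the 37 genes, and 0 of the 13584 genes fitted, passed an adjusted p of 0.05, while the unadjusted p was under 0.05 for 17 of the 37 and 1535 of all. With these terms DESeq2 called 6 of the 37, all higher, among 73 genes called higher (0.622% of 11740) and 52 lower (0.443%). The 6 were CTSB (log2 fold change 1.90, adjusted p = 1.4e-07), CTSS (1.83, adjusted p = 2.15e-05), CTSD (1.39, adjusted p = 0.00111), GPNMB (3.64, adjusted p = 0.00279), NEU1 (1.32, adjusted p = 0.00772) and NPC2 (1.28, adjusted p = 0.0298). All of them are among the 7 genes that rose in both lines, and GLA, the remaining one, had an adjusted p of 0.0556 by DESeq2. The tools therefore gave different calls for these 6 genes, whose adjusted p by edgeR was 0.359 in each case. In this fit each line counts as 1 sample of the treatment.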

How the data were processed

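The authors deposited one table of expected counts, estimates per gene and library that need not be whole, neither normalized nor pooled. The submitters' processing notes name HISAT2, StringTie 1.3.1 and hg38 without roles, and the program behind the counts and its annotation are not given in the sources used here. Symbols were found for 20310 of 20348 identifiers, and coordinates and transcript lengths came from GENCODE release 29 for 20118. The members and lists were chosen with earlier results of these data known. Counts were rounded. TMM factors for each pair of libraries came from edgeR 4.0.16 (R 4.3.3), and log2 fold changes used a prior count of 0.125. Intervals (95%) were exact binomial ones, computed with Python 3.11.15, scipy 1.17.1, numpy 2.4.6 and pandas 2.3.3. Figures used matplotlib 3.10.9. A count of 3 or fewer was the floor. The 4-library fit used genes that reached 10 counts in 2 libraries or more, edgeR's quasi-likelihood test with Benjamini-Hochberg adjustment, and DESeq2 1.42.0 as the alternative, where 1844 genes without an adjusted p stayed out. Both tools and the intervals were run on simulated data. The simulated spread between libraries was smaller than that fitted here for the tools, and was counting error alone for the intervals. These runs therefore check the code and not how the methods perform on libraries without replicates.

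All 37 genes were to be named, in full where they passed 2-fold in either line, together with TFEB, TFE3, MITF, SQSTM1, MAP1LC3B and GABARAPL1. From each other list the 3 largest changes per line with a mean of at least 10 CPM were named. One of these genes is not reported here. TFEC, MAP1LC3B2, ARSG, MRNIP and the markers at or near 0 were chosen after their values were seen. Library totals in the count table were 16381149 to 20622694, and 87.4% to 88.3% of values were whole. Mitochondrially encoded genes took 5.62% (DMSO) and 2.07% (periplocin) of counts in K562, and 5.24% and 3.92% in THP-1. The table had 0 columns that were not used.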

Additional observations from a re-analysis of the deposited data

Results flagged for a closer look

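Among the lysosome and autophagy genes, 7 were lower in K562 and higher in THP-1 with both counting intervals clear of 0, which holds for 9.9% of 11672 genes (19.4% of the 36 compared). The reverse direction held for none of the 36, against 9.49% of 11672 genes. The difference of the responses, THP-1 log2 fold change minus K562 log2 fold change, was 3.03 for WIPI1, 2.43 for MITF, 1.45 for TFE3, 1.14 for MAP1LC3B, 1.08 for NPC1, 0.71 for ATG7 and 0.44 for LAMP2. Each group has 1 library, so the difference was not tested. For WIPI1, whose exons overlap those of ARSG, the opposite direction remained when the counts of ARSG were added (-1.10 in K562 and 0.82 in THP-1). VGLL4 on the opposite strand shares 18.1% of the exon bases of ATG7. VGLL4 was at 1052 and 420 counts in K562, where ATG7 was at 703 and 593. In THP-1 VGLL4 was at 875 and 871 counts and ATG7 at 999 and 1156. The part of VGLL4 in the K562 value of ATG7 was not tested.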

How the results depend on the processing

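The counts of genes past 2-fold and the medians were recomputed with library totals, DESeq2 size factors, TMM over 4 libraries, mitochondrial genes left out, no filter, a mean of at least 5 CPM, a prior count of 2 and unrounded counts. The number that rose was 9 or 10 in K562 and 13 or 14 in THP-1. With DESeq2 size factors 0 genes fell in K562, where WIPI1 was at -0.98. At 1.5-fold in place of 2-fold, 18 genes were called higher in K562 (20.5% of all genes) and 26 in THP-1 (18.7%), and 1, GAA, lower in THP-1 (22.8%). The median of the 37 genes between the DMSO libraries was -0.0066 with library totals. In the 4-library fit DESeq2 called 125 genes and 6 of the 37, and edgeR without a filter called 1 gene, AQP1, which is not among them. The causes were not tested. With counts of overlapping genes added, an alternative chosen after seeing the data, 10 and 13 genes rose. For single genes named in full, 307 of 309 values stayed within the counting interval and 0 changed sign. Part of these 309 values could not differ. The filter settings leave the log2 fold change of a gene as it was, and TMM over 4 libraries repeats the K562 values. The 4-library fit, with line as a term, pairs periplocin with DMSO within each line. No library could be left out, because each group has 1 and the 4-library fit would keep no residual degrees of freedom. Genes with under 100 counts in both libraries, GPNMB in K562 and WIPI1 and GABARAPL1 in THP-1, had intervals wider than 1 on the log2 scale.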

Other observations

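In the other pathway lists, which hold 174 genes, 3 genes passed 2-fold in opposite directions in the lines, and they are named here after their values were seen. The share of all genes that did so was not counted. IDS, the lysosomal iduronate sulfatase, had 1438 counts in DMSO and 707 in periplocin in K562 (-1.05), against 1082 and 2297 in THP-1 (1.32). ATP6V1C2 had 46 and 22 counts in K562 (-1.09), against 152 and 415 in THP-1 (1.68). LAMP3, a LAMP protein of dendritic cells, had 190 and 13 counts in K562 (-3.88). In THP-1 it had 3 and 12 counts (2.18 [0.34 to 4.70]) and was compared only through the periplocin library. Whether these responses differ between the lines was not tested.

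Beside TP53INP1 and TP53INP2, 4 genes of those lists rose in both lines with counting intervals clear of 0, again named after their values were seen. Of all 11672 genes compared in both lines, 2.33% rose in both. ASAH1, the acid ceramidase, had 2951 and 8448 counts in K562 (1.49), against 2300 and 6065 in THP-1 (1.63). CLCN7 had 2500 and 5503 counts in K562 (1.11), against 2619 and 4796 in THP-1 (1.10). FUCA1, the lysosomal fucosidase, had 261 and 545 counts in K562 (1.04), against 175 and 382 in THP-1 (1.36). SLC11A2, an iron transporter, had 1131 and 2426 counts in K562 (1.07), against 484 and 883 in THP-1 (1.10). LGMN, at 166 and 722 counts in K562 (2.09), had 4 and 11 in THP-1, where it was compared only through the periplocin library and its interval included 0 (1.66 [-0.07 to 3.80]). ACP5, the tartrate-resistant acid phosphatase, rose in K562 from 773 to 2428 counts (1.62) and had 2 and 1 counts in THP-1.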
